A study of Mus musculus with 19 samples.

Results

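The genes described here are the tissue inhibitors of metalloproteinases (Timp1 to Timp4), the membrane-anchored inhibitor Reck and a set of other protease inhibitors, in the infrarenal aorta of C57BL/6J mice after elastase. They were taken by name, and each was read from the brightest probe set that carried its symbol and no other. Of the 10 genes on the list, 9 were measured in this way, among 30142 genes in all. Slpi, the secretory leukocyte peptidase inhibitor, is not analysed here because its listed probe set also carries a microRNA. The symbol A2m stands for the gene at 6: 121636165 to 121679238 (mm10), not for Pzp, which has A2m as an older synonym. A further probe set listed under Stfa3 carries the gene ID of Cstdc5 and was not used for Stfa3.

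The study compared male and female mice aged 10 weeks, with 1 mouse and 1 Clariom D whole-transcriptome array per sample. The groups were 7 male PPE, 5 male sham, 4 female PPE and 3 female sham aortae. In PPE mice the infrarenal aorta was filled for 5 min at 120 mmHg with saline that held type I porcine pancreatic elastase at 2.5 U/mL, and in sham mice with saline alone. All tissue was taken 7 days later, so both groups had the clamping, the aortotomy and its repair, and the labels name no group without surgery. Elastase digests the elastic fibres of the vessel wall, and the infused segment is a model of abdominal aortic aneurysm. The segment holds all cells of the wall, and in such bulk RNA fewer cells of a type and less RNA per cell cannot be told apart.

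The matrix of the aorta is cut by matrix metalloproteinases, by ADAM and ADAMTS proteases, by cysteine cathepsins and by serine proteases of leukocytes, and each class has its own inhibitors. TIMPs bind the active site of metalloproteinases, and Reck holds several of them in check at the cell surface. A2m traps proteases of many classes, Serping1 (C1 inhibitor) blocks the C1 proteases of complement, and cystatin C (Cst3) and the stefins block cysteine cathepsins.

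Promoter windows from 250 bases before to 50 bases after the start site were found for 7 of the 9 measured genes in the RefSeq table of GRCm38.p6. Those of Timp1, which rose in males, and of Timp4 and Reck, which had the largest falls among these genes, are given below 5′ to 3′ on the strand of the gene. Capitals mark the GC box GGGCGG read on either strand, the motif at which Sp1 binds.
Timp1 (chrX:20869916-20870215, plus strand): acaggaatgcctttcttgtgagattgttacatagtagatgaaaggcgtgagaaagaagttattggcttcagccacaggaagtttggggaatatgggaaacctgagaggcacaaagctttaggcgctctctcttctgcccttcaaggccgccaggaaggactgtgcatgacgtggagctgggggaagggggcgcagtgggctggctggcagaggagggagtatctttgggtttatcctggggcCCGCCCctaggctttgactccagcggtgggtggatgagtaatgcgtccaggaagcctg
Timp4 (chr6:115252156-115252455, minus strand): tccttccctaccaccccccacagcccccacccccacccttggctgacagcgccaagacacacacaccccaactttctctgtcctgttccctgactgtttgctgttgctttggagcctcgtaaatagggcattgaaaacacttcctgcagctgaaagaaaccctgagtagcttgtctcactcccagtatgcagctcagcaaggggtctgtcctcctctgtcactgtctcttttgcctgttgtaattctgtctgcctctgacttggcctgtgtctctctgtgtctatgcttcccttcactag
Reck (chr4:43875280-43875579, plus strand): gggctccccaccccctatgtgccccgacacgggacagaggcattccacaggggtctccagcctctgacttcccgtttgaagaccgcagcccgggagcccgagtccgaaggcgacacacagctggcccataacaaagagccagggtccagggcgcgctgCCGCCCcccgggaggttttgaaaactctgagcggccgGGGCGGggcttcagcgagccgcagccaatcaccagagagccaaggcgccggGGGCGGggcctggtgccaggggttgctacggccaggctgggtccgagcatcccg
The window of Timp1 held 1 GC box, 8 bases before the start site, that of Reck held 3, and that of Timp4 held none. A GC box occurred in 35.7% of the 32851 windows of the table. Searches on both strands for the AP-1 motif TGANTCA (7.81% of windows), the STAT motif TTCNNNGAA (8.3%), TATAAA (13.6%) and the CArG box (1.63%) found no match in these 3 windows. Among the 7 windows the AP-1 motif was met in that of Stfa3, 30 bases into the transcript. Timp2, Timp3 and Cst3 had GC boxes but none of the other motifs.

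Values are the deposited log2 intensities. The median over all 65956 probe sets lay between 5.61 and 5.85 on the 12 male arrays and between 6.17 and 6.31 on the 7 female arrays, so levels were compared within a sex. Sex and array set cannot be told apart. Acta2, the actin of smooth muscle, averaged 17.84 and 18.58 in male PPE and sham aortae and 17.62 and 18.46 in female PPE and sham aortae, among the brightest probe sets as in a vessel wall. Male sham 4 stood apart, where 6 adipocyte markers averaged 11.77, while the other 4 male sham arrays had 7.14 to 7.95. Its mesothelial marker mean was also the highest, 6.07 against 5.17 to 5.28 in the others of its group. Its macrophage marker mean was the lowest of its group, 10.43 against 10.93 to 12.24. Each called difference of the 9 genes is also given without male sham 4, those of other genes only with all arrays. Male sham 4, male sham 5 and male PPE 1 had maxima of 19.71, 19.68 and 19.69, the other male arrays 19.83 to 19.92. Their medians of 5.83, 5.78 and 5.85 were above those of the other male arrays, 5.61 to 5.73. These 3 arrays were also left out together in 1 fit. Skeletal muscle markers were high in female sham 1 (11.28) and female PPE 2 (9.79), against 6.29 to 6.49 in the other female arrays, and in male PPE 6 (8.04), against 5.66 to 6.16 in the other male arrays. Nerve markers were high in female PPE 2 (8.86), against 5.84 to 6.85 in the other female arrays.

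In male aortae Timp1 rose after PPE, and Timp4, Reck, Timp3 and Timp2 fell. A2m, Serping1, Cst3 and Stfa3 did not pass the test. With limma's moderated test and Benjamini-Hochberg adjustment over all 30142 genes, 1 of the 9 genes was called higher and 4 were called lower at an adjusted p below 0.05. Over all genes 9.67% were called higher and 9.98% lower, and 19.7% in either direction. The median log2 difference was -0.05 over the 9 genes and 0.01 over all genes. In females Timp4 was the 1 gene of the 9 that was called, and it was lower. The female calls over all genes came to 4.22%, made up of 2.77% higher and 1.45% lower. The median of the 9 was -0.24 in females, against -0.02 over all genes. The 4 female PPE and 3 female sham arrays give wider intervals than the male arrays.

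**Figure D1:**
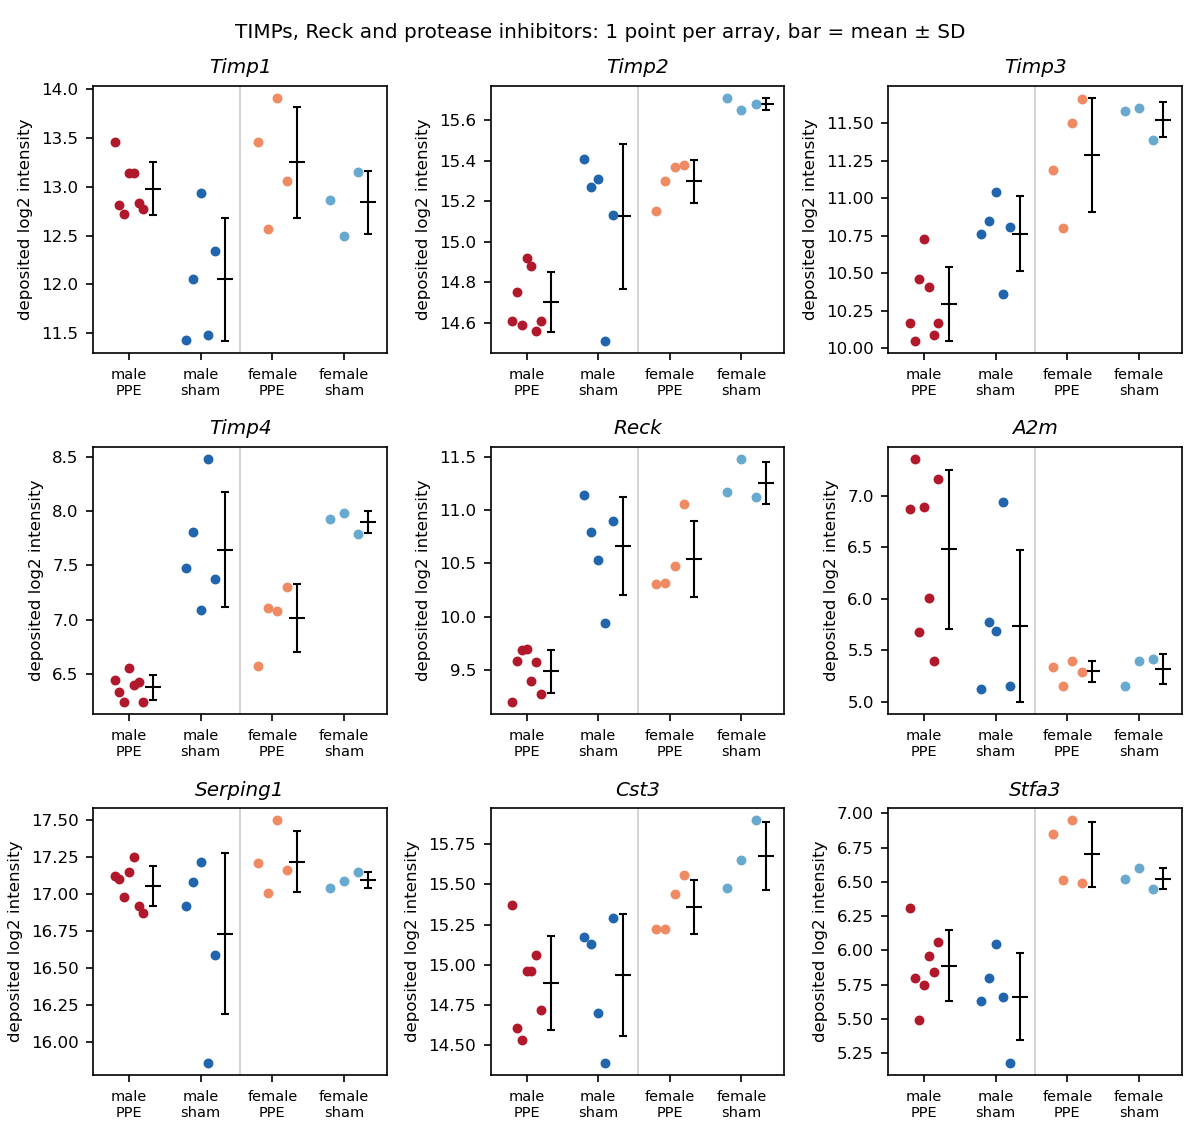
Deposited log2 intensity (vertical axes, a separate range for each gene) of the 9 measured genes on each array, with points for single mice and bars for mean ± SD. Male PPE and male sham arrays do not overlap for Timp4 and Reck, and female PPE and female sham arrays do not overlap for Timp2, Timp4 and Reck.

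Timp1, the inducible inhibitor that also binds the zymogen of Mmp9, had a lowest value of 12.72, a median of 12.83 and a highest of 13.46 in male PPE aortae. In male sham aortae it stood at 11.43, 12.06, 12.94, 11.48 and 12.34. Male sham 3, at 12.94, lay within the PPE range, and the other 4 sham arrays lay below all 7 PPE arrays. Timp1 averaged 12.98 ± 0.27 in male PPE and 12.05 ± 0.63 in male sham aortae (SD, n = 7 and 5), a log2 difference of 0.93 ± 0.25 (SE), or 1.91-fold higher (limma, adjusted p = 0.0129). Without male sham 4 the difference was 0.79 ± 0.26 (adjusted p = 0.0437), and without male sham 4, male sham 5 and male PPE 1 it was 0.76 (adjusted p = 0.0907). In female PPE aortae Timp1 stood at 13.46, 12.57, 13.91 and 13.06, against 12.87, 12.5 and 13.15 in female sham aortae. These groups overlapped, and the difference of 0.41 ± 0.33 was not called (95% interval -0.28 to 1.10, adjusted p = 0.681).

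Male sham 3, the sham array with the highest Timp1, also had the highest neutrophil marker mean of the male sham arrays, 8.41 against 7.09 to 7.55. Neutrophil markers were higher after PPE, with list means of 9.05 to 10.18 in male PPE against 7.09 to 8.41 in male sham aortae. Of the 7 markers 6 were called higher in males (9.67% of all genes called higher). In females the list means were 8.99 to 9.91 in PPE and 7.06 to 7.52 in sham aortae. Over the deviations of the 19 arrays from their group means, Timp1 and the neutrophil markers had r = 0.72 (permutation p = 0.00314, adjusted 0.0642 over 99 relations of a gene with a marker list). Spearman's rho was 0.69 (permutation p = 0.00503, adjusted 0.083), and r was 0.84 without the 2 arrays farthest from the median of the marker axis. The part of these cells in the rise of Timp1 was not tested.

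Timp4, the member of the family best known from heart and vessels, fell in both sexes. With all arrays its male difference was larger than that of Reck, but Reck had the larger one without male sham 4 (-1.06 for Timp4 and -1.36 for Reck), with array weights (-1.19 and -1.30), with quantile normalization over all arrays (-1.18 and -1.23) or within each sex (-1.20 and -1.21), and with 3 male arrays left out (-1.10 and -1.29). In male PPE aortae its lowest value was 6.24, its median 6.40 and its highest 6.55. In male sham aortae it stood at 7.48, 7.81, 7.09, 8.48 and 7.37, so every PPE array lay below every sham array. The means were 6.37 ± 0.11 in male PPE and 7.65 ± 0.53 in male sham aortae (SD, n = 7 and 5), a log2 difference of -1.27 ± 0.18 (SE), or 2.41-fold lower (limma, adjusted p = 4.08e-05). The highest sham value, 8.48, was that of male sham 4, the array with the high adipocyte markers. Without it the difference was -1.06 ± 0.13 (adjusted p = 1.96e-05), and the other 4 sham arrays, at 7.09 to 7.81, still lay above all PPE arrays.

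In female PPE aortae Timp4 stood at 6.57, 7.11, 7.08 and 7.3, against 7.93, 7.98 and 7.79 in female sham aortae. The groups again did not overlap, and the difference was -0.89 ± 0.23, or 1.85-fold lower (limma, adjusted p = 0.035). The call was lost without any 1 of female sham 1, 2 or 3 or female PPE 1, 2 or 3, with adjusted p between 0.0625 and 0.142. Without male sham 4, which enters through the shared variance, the adjusted p was 0.00453. Adipocyte marker means were 8.31 to 10.39 in female PPE and 9.72 to 10.54 in female sham aortae. The male means were 7.64 to 8.49 in PPE, 11.77 in male sham 4 and 7.14 to 7.95 in the other sham aortae. None of the 6 adipocyte markers was called in either sex (limma, adjusted p). Timp4 and these markers had r = 0.80 over the deviations of 19 arrays (permutation p = 0.0178, adjusted 0.176) and rho = 0.50 (permutation p = 0.0442, adjusted 0.356). Without the 2 farthest arrays, male sham 4 and female PPE 4, r was 0.17, so the relation rests on those arrays. Mesothelial markers gave r = 0.80 as well (permutation p = 0.00952, adjusted 0.133) and rho = 0.59 (permutation p = 0.0191, adjusted 0.237), and r was 0.33 without male sham 4 and male PPE 4. Mesothelial marker means were 5.3 to 5.61 in male PPE, 6.07 in male sham 4 and 5.17 to 5.28 in the other male sham aortae. The female means were 5.46 to 5.7 in PPE and 5.64 to 5.65 in sham aortae. None of the 6 mesothelial markers was called in either sex. The part of adipocytes and mesothelial cells in the fall of Timp4 was not tested.

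Reck, a glycosylphosphatidylinositol-anchored protein that restrains Mmp9, Mmp2 and Mmp14 at the cell surface, fell in males. Its lowest value was 9.20, its median 9.57 and its highest 9.70 in male PPE aortae. In male sham aortae it stood at 11.14, 10.80, 10.53, 9.94 and 10.90, all above the PPE arrays, with male sham 4 the lowest. The means were 9.49 ± 0.20 in male PPE and 10.66 ± 0.46 in male sham aortae, a log2 difference of -1.18 ± 0.18 (SE), or 2.26-fold lower (limma, adjusted p = 9.08e-05). Without male sham 4 it was -1.36 ± 0.15 (adjusted p = 8.63e-06). In female PPE aortae Reck stood at 10.31, 10.32, 10.48 and 11.06, against 11.17, 11.48 and 11.12 in female sham aortae.

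The female groups did not overlap for Reck, but female PPE 4, at 11.06, came close to the lowest sham array. The difference of -0.71 ± 0.23 was not called (95% interval -1.20 to -0.23, adjusted p = 0.099). It was called without female PPE 4 (-0.89 ± 0.22, adjusted p = 0.0294) and without male sham 4 (-0.71 ± 0.18, adjusted p = 0.0284). Female PPE 4 also had the highest smooth muscle marker mean of the female PPE arrays, 12.51 against 11.86 to 11.94.

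Timp2, which blocks metalloproteinases and also takes part with Mmp14 in activating pro-Mmp2, had a lowest value of 14.56, a median of 14.61 and a highest of 14.92 in male PPE aortae. In male sham aortae it stood at 15.41, 15.27, 15.31, 14.51 and 15.13. Male sham 4 lay below every PPE array, and the other 4 sham arrays lay above every PPE array. The log2 difference was -0.42 ± 0.12, or 1.34-fold lower (limma, adjusted p = 0.0176), and -0.58 ± 0.08 without male sham 4 (adjusted p = 5.79e-05). The call was lost without male sham 1 (-0.35, adjusted p = 0.0634) with each array centred on its median (-0.37, adjusted p = 0.0728), with quantile normalization over all arrays (-0.37, adjusted p = 0.146) or within each sex (-0.39, adjusted p = 0.138), and in a fit of the male arrays alone (-0.42, adjusted p = 0.0609). In female PPE aortae Timp2 stood at 15.15, 15.3, 15.37 and 15.38, below all of 15.71, 15.65 and 15.68 in female sham aortae. The female difference of -0.38 ± 0.16 was not called (95% interval -0.71 to -0.05, adjusted p = 0.239). It was called without male sham 4 (adjusted p = 0.0289), where its SE was 0.097 against 0.157 with all arrays.

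Timp3, the matrix-bound inhibitor of metalloproteinases that also blocks Adam17, had a lowest value of 10.05, a median of 10.17 and a highest of 10.73 in male PPE aortae. Male sham values were 10.76, 10.85, 11.04, 10.36 and 10.81, and male sham 4 was the 1 sham array within the PPE range. The log2 difference was -0.47 ± 0.15, or 1.38-fold lower (limma, adjusted p = 0.0332). The call was lost in 8 of the fits without 1 array, those without male sham 1, 2, 3 or 5 or male PPE 1, 2, 6 or 7 (adjusted p 0.0521 to 0.0854), and with median centring (adjusted p = 0.0809). Without male sham 4 it was -0.57 ± 0.15 (adjusted p = 0.0113). In female PPE aortae Timp3 stood at 11.19, 10.8, 11.5 and 11.66, against 11.58, 11.6 and 11.39 in female sham aortae. These groups overlapped, and the difference of -0.24 ± 0.19 was not called (95% interval -0.64 to 0.17, adjusted p = 0.692).

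**Figure D2:**
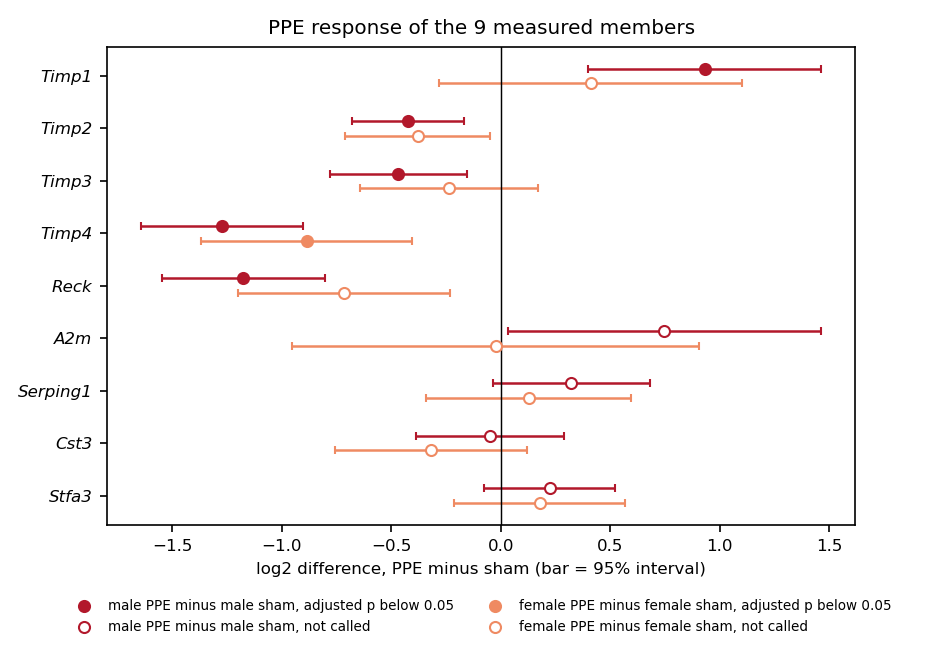
Log2 difference PPE minus sham (horizontal axis) for the 9 measured genes in males and in females, with the 95% interval from the fit. Filled points had an adjusted p below 0.05, which held for 5 genes in males and for Timp4 in females.

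Complete separation of PPE and sham arrays held for 2 of the 9 genes in males, Timp4 and Reck, both lower, where 9.37% of all genes were separated (4.69% higher and 4.68% lower). In females it held for 3 of the 9, Timp2, Timp4 and Reck, all lower, where 19.8% of all genes were separated (11% higher and 8.86% lower).

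Among the inhibitors outside the TIMP and Reck group, none was called in either sex (limma, adjusted p). At an unadjusted p below 0.05, 6 of the 9 genes passed in males, where 29.4% of all genes did, and 3 of the 9 in females, where 14.7% did. A2m was the gene that passed in males only without adjustment. A2m, the macroglobulin that traps proteases of many classes, spread widely in males, with a lowest value of 5.39, a median of 6.87 and a highest of 7.36 in male PPE aortae. In male sham aortae it stood at 5.12, 5.77, 5.69, 6.94 and 5.15, and male sham 4 was higher than 5 of the 7 PPE arrays. The log2 difference was 0.75 ± 0.34 (95% interval 0.03 to 1.46, adjusted p = 0.148) and 1.05 ± 0.31 without male sham 4 (adjusted p = 0.0249). In females A2m lay between 5.15 and 5.39 in PPE and between 5.15 and 5.41 in sham aortae, a difference of -0.02 ± 0.44. Averaged over the arrays, A2m ranked at the 45.8th percentile of all probe sets. The files give no detection call, so it cannot be told here whether its lower values exceed background.

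Serping1, the C1 inhibitor, was among the brightest probe sets. It lay between 16.87 and 17.25 in male PPE aortae. Male sham values were 16.92, 17.08, 17.22, 15.86 and 16.59, with male sham 4 the lowest. The difference was 0.32 ± 0.17 (adjusted p = 0.224) and 0.10 ± 0.11 without male sham 4 (adjusted p = 0.614). In female aortae it lay between 17.01 and 17.5 in PPE and between 17.04 and 17.15 in sham (0.13 ± 0.22). The 99th percentile of the arrays was 16.58 to 17.33. Whether changes are compressed at this brightness was not tested.

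Cst3, the secreted cathepsin inhibitor cystatin C, lay between 14.53 and 15.37 in male PPE and between 14.39 and 15.29 in male sham aortae. The difference was -0.05 ± 0.16 (95% interval -0.39 to 0.29) and -0.19 ± 0.15 without male sham 4 (adjusted p = 0.473). In females it lay between 15.22 and 15.56 in PPE and between 15.48 and 15.9 in sham aortae (-0.32 ± 0.21, adjusted p = 0.574). Stfa3, a stefin that acts inside cells on cysteine cathepsins, lay between 5.49 and 6.31 in male PPE and between 5.18 and 6.05 in male sham aortae (0.22 ± 0.14). In females it lay between 6.49 and 6.95 in PPE and between 6.45 and 6.6 in sham aortae (0.18 ± 0.19). Stfa3 belongs to a family of near-identical genes on chromosome 16, so its probe set may also read its neighbours, and it ranked at the 52.9th percentile of all probe sets.

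The size of the response was then compared between the sexes. None of the 9 genes was called for the difference of the PPE response, male minus female, where 0.541% of all genes were called (limma), 0.0398% higher and 0.501% lower. At an unadjusted p below 0.05, 0 of the 9 passed with all arrays, where 2998 of all 30142 genes did, and 2 of the 9 without male sham 4, where 3419 did. Reck differed by -0.46 ± 0.29 between male and female responses (95% interval -1.07 to 0.15), Timp4 by -0.39 ± 0.29 (-0.99 to 0.22) and Timp1 by 0.52 ± 0.42 (-0.35 to 1.40). The widest interval was that of A2m, 0.77 ± 0.56 (-0.40 to 1.95), and the narrowest that of Timp2, -0.04 ± 0.20 (-0.46 to 0.37). Without male sham 4 the difference was -0.64 ± 0.24 for Reck (adjusted p = 0.284), -0.18 ± 0.21 for Timp4 (adjusted p = 0.783), -0.20 ± 0.13 for Timp2 (adjusted p = 0.583) and 1.07 ± 0.49 for A2m (adjusted p = 0.429). With all arrays the intervals allow a response in one sex that exceeds the other by 1 log2 unit for Timp1, Reck and A2m.

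The deviations of single arrays from their group means showed which of the 9 genes varied together within groups. Reck followed a list of 5 fibroblast markers with r = 0.84 (permutation p = 2e-04, adjusted 0.0153 over 99 relations) and rho = 0.79 (permutation p = 0.00049, adjusted 0.0201). Without the 2 farthest arrays, male sham 4 and male sham 1, r was 0.66. Timp2 followed the same markers with r = 0.89 (permutation p = 0.00031, adjusted 0.0153) and rho = 0.77 (permutation p = 0.00061, adjusted 0.0201), and with r = 0.62 without these arrays. These were the 2 of 99 relations with an adjusted Pearson p below 0.05. Timp3 ran with the fibroblast markers too (r = 0.69, permutation p = 0.00215, adjusted 0.0642). Its rho was 0.70 (permutation p = 0.00312, adjusted 0.0618), and its r was 0.73 without the 2 farthest arrays. Fibroblast marker means were 14.15 to 14.43 in male PPE aortae, 14.17 in male sham 4 and 14.70 or more in the other male sham aortae. Of the 5 markers 3 were called lower in males (9.98% of all genes called lower). In females the means were 13.96 to 14.29 in PPE against 14.51 to 14.71 in sham aortae. The female calls were 1 of 5, lower (1.45% of all genes called lower).

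Reck also ran with the 8 smooth muscle markers (r = 0.70, permutation p = 0.00389, adjusted 0.0642, and rho = 0.76, permutation p = 0.0005, adjusted 0.0201), with r = 0.82 without the 2 farthest arrays. Of these markers 7 of 8 were called lower in males and 6 of 8 in females (9.98% and 1.45% of all genes). Their means were 11.02 to 12.05 in male PPE against 12.67 to 13.74 in male sham aortae, and 11.86 to 12.51 in female PPE against 13.09 to 13.53 in female sham aortae. Stfa3 ran the other way with the smooth muscle markers (r = -0.71, permutation p = 0.00377, adjusted 0.0642, and rho = -0.73, permutation p = 0.00191, adjusted 0.0473), with r = -0.69 without the 2 farthest arrays. By Spearman's rho these 2 relations and those of Reck and Timp2 with fibroblast markers had an adjusted p below 0.05. The part of fibroblasts and smooth muscle cells in the falls of Reck, Timp2 and Timp3 was not tested.

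**Figure D3:**
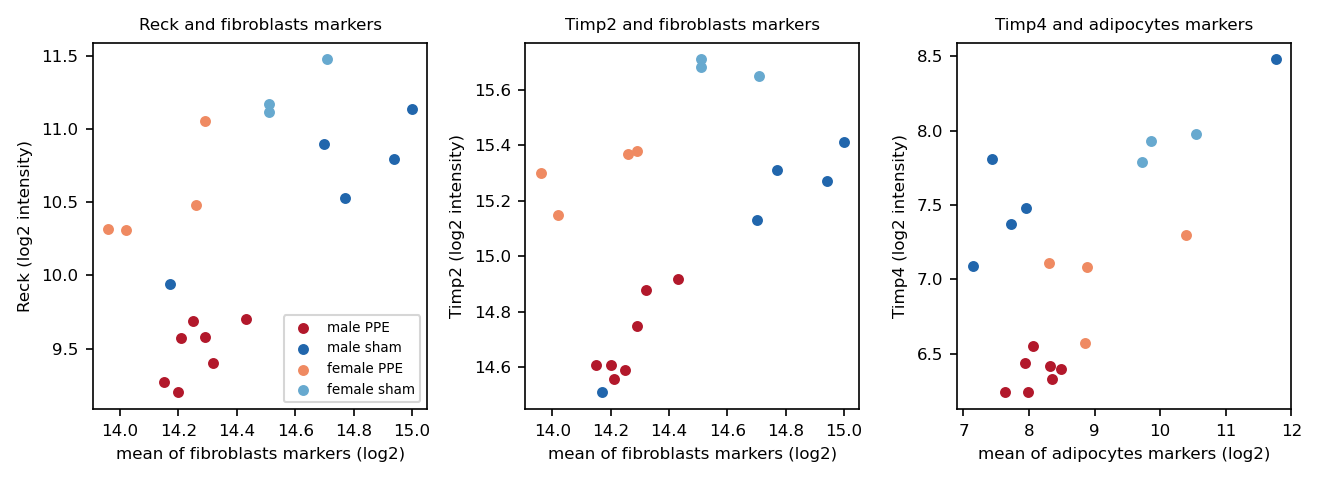
Log2 intensity of Reck, Timp2 and Timp4 (vertical axes) against the mean log2 value of fibroblast or adipocyte markers (horizontal axes), 1 point per array, coloured by group. Male sham 4 is the blue point at an adipocyte mean of 11.77, where Timp4 was 8.48.

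The genes whose deviations were most like those of each inhibitor were taken from 11100 brighter genes by Pearson's r over 19 arrays, as a description of these arrays, which share their groups and male sham 4. Reck was nearest to Fbln5, an elastic fibre protein (r = 0.95, and 0.93 without male sham 4), followed by Itih2 and Cped1. Serping1 was nearest to C1ra (r = 0.95 and 0.92), which encodes the complement protease that C1 inhibitor binds, and to Fbln1 (0.94 and 0.88). Timp1 was nearest to Serpina3i (0.90 and 0.93), a serpin, and to Lsp1 (0.88 and 0.87), a leukocyte protein. Timp3 was nearest to Tmem45a (0.87 and 0.83) and Spon1 (0.86 and 0.85). For Timp4 the nearest were Cd300lg (0.89 and 0.71), Crat (0.87 and 0.67) and the lipoprotein lipase gene Lpl (0.87 and 0.73), all of which lost likeness without male sham 4. Timp2 was nearest to Colec12 (0.88), which fell to 0.62 without that array. For A2m, Cst3 and Stfa3 the highest values were 0.76, 0.86 and 0.80, with Sema3g, Rpl10-ps2 and B3gnt3.

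The proteases that these inhibitors act on moved in both directions. Of 17 measured matrix metalloproteinases 3 were called higher and 4 lower in males (19.7% of all genes called in either direction), with a median of -0.01. The gelatinase Mmp9 had a log2 difference of 1.86 ± 0.43 in males (adjusted p = 0.00404) and of 1.66 ± 0.56 in females (adjusted p = 0.117). The constitutive gelatinase Mmp2 was not called in either sex (-0.36 and -0.34). The membrane-anchored Mmp25 of leukocytes rose by 1.59 in males and 1.03 in females, whereas Mmp16 fell by 0.74 in males and by 0.70 in females. Mmp17 fell by 0.88 in males and stood at -0.40 in females without a call. In females 1 of the 17 was called higher and 1 lower (4.22% of all genes called).

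Of 17 measured ADAM and ADAMTS proteases 2 were called higher and 3 lower in males (19.7% of all genes called). In females 1 was called higher and 1 lower (4.22% of all genes called). Adam17, the sheddase that Timp3 blocks, rose by 0.75 ± 0.15 in males (adjusted p = 0.00129) and stood at 0.41 ± 0.20 in females (adjusted p = 0.342), while Adam10 was not called in either sex (0.31 and 0.31). Adam8 of leukocytes rose by 1.43 in males and 1.10 in females. Adamts10, which acts on fibrillin microfibrils, fell by 1.13 in males and by 0.57 in females. Adamts8 fell by 1.42 in males and stood at -0.82 in females (adjusted p = 0.0516).

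Cysteine cathepsins are the targets of cystatins and stefins. Of 11 measured genes, legumain counted among them, 6 were called higher and 1 lower in males (19.7% of all genes called). Their male median was 0.60, and legumain was 1 of the 6. Ctsw of cytotoxic lymphocytes rose by 2.45 in males and 1.73 in females, and Ctsf fell by 0.87 in males and by 0.64 in females. The lysosomal Ctsb and Ctsl were not called in either sex. In females 1 of the 11 was called higher and 1 lower (4.22% of all genes called), with a median of 0.28. Cst3 was not called in either sex, as given above.

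Of 12 measured genes of leukocyte granule serine proteases and plasminogen activation 5 were called higher and none lower in males (limma, adjusted p). Plaur, a receptor and not a protease, was 1 of the 5. The share of all genes called higher in males was 9.67%. The granzyme Gzma rose by 2.10 in males and 1.10 in females, and Gzmb rose by 1.93 in males and stood at 1.12 in females. Neutrophil elastase (Elane) rose by 0.52 ± 0.16 in males, at a probe set that ranked at the 26.7th percentile, and cathepsin G (Ctsg) was not called. The tissue plasminogen activator Plat fell by 1.14 ± 0.23 in females (adjusted p = 0.00975) and stood at -0.38 ± 0.18 in males (adjusted p = 0.165). Of 8 measured complement genes 4 were called higher in males and 1 in females, against 9.67% and 2.77% of all genes. The list held C1 and classical pathway genes, Masp1 of the lectin pathway and Cfb of the alternative pathway. Cfb was the 1 gene called in females and 1 of the 4 in males. C1qa rose by 1.47 in males and stood at 0.71 in females, and Cfb rose by 2.3 in males and 1.40 in females. C1ra, the C1 protease target of Serping1, was not called (0.34 and 0.33), nor was C2 (0.37 and 0.61).

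**Figure D4:**
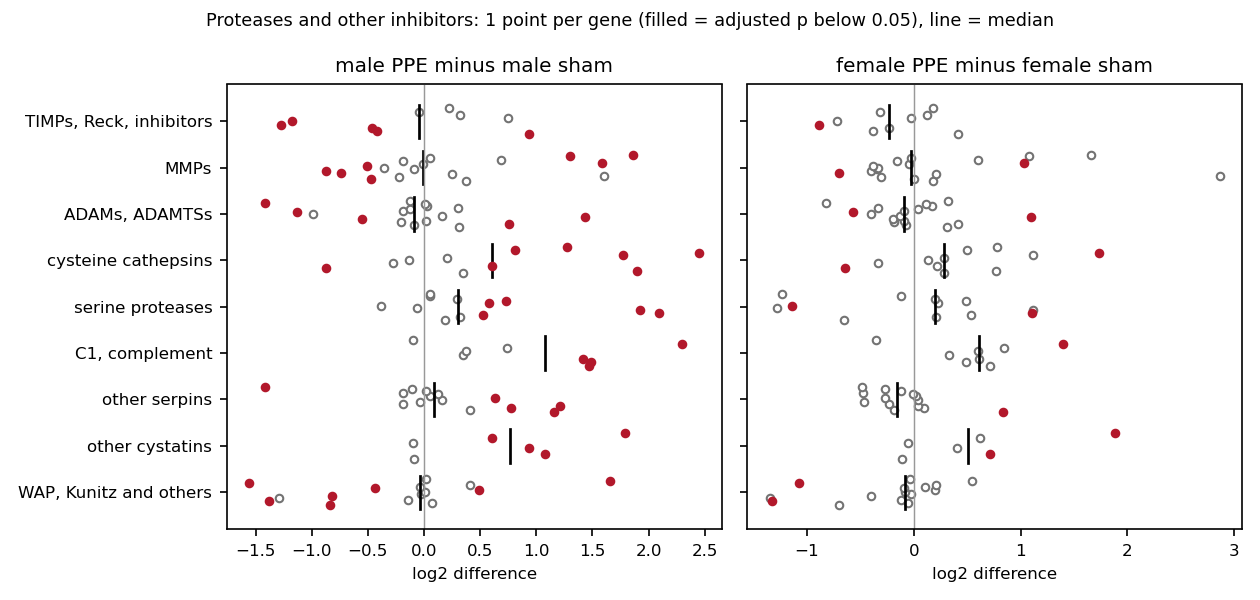
Log2 difference PPE minus sham (horizontal axes) for each measured gene in males (left) and females (right), with the list median as a line. Shown are the TIMP, Reck and inhibitor group and 8 lists of protease, complement and inhibitor-family genes. Filled points had an adjusted p below 0.05, and cysteine cathepsins, with legumain counted among them, show a male median of 0.60.

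The other members of inhibitor families on the array also split by gene. Of 6 measured cystatins and stefins beside Cst3 and Stfa3, 4 were called higher in males and 2 in females (9.67% and 2.77% of all genes). Stfa2l1, a stefin of the same cluster as Stfa3, rose by 1.79 ± 0.32 in males (adjusted p = 0.000495) and 1.88 ± 0.42 in females (adjusted p = 0.015). Cst7, the cystatin F of leukocytes, rose by 1.08 in males and 0.71 in females, and the intracellular Cstb rose by 0.93 in males and stood at 0.41 in females. Stfa1 was not called (-0.09 and -0.05).

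Of 14 other serpins 4 were called higher and 1 lower in males (19.7% of all genes called). In females 1 of them was called, and it was higher (4.22% of all genes called). Serpina3f rose by 1.15 in males and 0.83 in females. Serpini1, the neuroserpin that inhibits tissue plasminogen activator, fell by 1.41 in males and stood at -0.48 in females. Serpina3n and Serpinb6b were not called in either sex. Of 15 genes of the WAP, Kunitz, macroglobulin and inter-alpha-inhibitor families 2 were called higher and 5 lower in males (19.7% of all genes called). Not every gene of these families need be an inhibitor. Female calls were 2 of these 15, both lower (4.22% of all genes called). Wfdc1, a WAP-domain gene, fell by 1.56 in males and by 1.07 in females, and Itih2, a hyaluronan-binding heavy chain of inter-alpha-inhibitor, fell by 1.38 in males and by 1.32 in females. Wfdc17 of macrophages rose by 1.65 in males and stood at 0.55 in females. Pzp, the macroglobulin relative of A2m, was not called (0.01 and -0.09). None of these genes of the 8 lists was called for the difference between the sexes (limma, adjusted p).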

How the data were processed

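RNA of 19 infrarenal aortae (100 ng each, RNA integrity number above 9) was hybridised to Affymetrix Clariom D (MTA 1.0) arrays, per the labels' protocols. The submitters' processing notes name the Transcriptome Analysis Console and mm10 for the deposited log2 intensities. The software version, the summarisation and any background correction were not found in these notes, and the log2 scale was read from the values. They were used without further normalization.

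Of 65956 probe sets, 30604 carried 1 gene symbol in the platform annotation, 2146 several and 33206 were not listed. Symbols were updated through gene IDs for 827 probe sets (RefSeq, GRCm38.p6), and the brightest probe set of each gene gave 30142 genes. A linear model with 4 group means was fitted to the 19 arrays (lmFit and eBayes, limma 3.58.1, R 4.3.3), with 1 variance per gene shared by the groups, contrasts PPE minus sham in each sex and their difference, and Benjamini-Hochberg adjustment over all genes (called at 0.05). The procedure was also run on simulated data with independent normal noise and 1 variance per gene for all groups. That run held no array that stood apart, so it does not test the effect of arrays such as male sham 4. No pair of arrays shared more than 2.5% identical values.

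Members, gene lists and tests were chosen with earlier results of these data known. Named genes were the members and, of each list, its first 2 measured genes and the 2 with the lowest p in each sex. The genes most like a member had a RefSeq entry, a mean above the median gene and no predicted or small RNA name. Relations used 100000 permutations within groups, two-sided (Python 3.11.15, numpy 2.4.6, scipy 1.17.1). PPE and sham arrays with the same replicate number were not treated as pairs. Correlations of same-numbered deviations ran from -0.321 to 0.24, which cannot exclude that such arrays share a batch. Alternatives were other normalizations, a filter on dim genes, other rules for probe sets, other variance models, array weights, only the arrays of that sex, a replicate block, each array left out, and 3 male arrays left out together.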

Additional observations from a re-analysis of the deposited data

How the results depend on the processing

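Leaving out 1 array in turn gave 4958 to 6365 genes called in males (5923 with all arrays) and 3 to 6 of the 9 inhibitors, 368 to 1613 genes in females (1273) and 0 to 3 inhibitors, and 0 to 426 genes for the difference between the sexes (163), with no inhibitor called in any of these fits (limma). The lowest female count was that without female sham 2. The difference count was 0 without female sham 1 or 2 (2966 and 2346 genes at an unadjusted p below 0.05), 7 without female PPE 3 and 12 without female PPE 4, and 29 and 35 without male sham 1 and 5. With median centring 3 inhibitors were called in males, and 274 genes for the difference. Quantile normalization within each sex called 2 inhibitors in females. Array weights called 3951 genes and 3 inhibitors in females and 931 genes for the difference. A fit of the female arrays alone called 1970 genes and 2 inhibitors. Without male sham 4 and 5 and male PPE 1 together, 2454 genes and 3 inhibitors were called in females and 79 genes for the difference. Of the called genes 49.2% were higher in males and 60.3% with median centring, 65.6% were higher in females and 44.1% with quantile normalization, and 7.36% were higher for the difference and 30.5% with quantile normalization. The causes were not tested.

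With the replicate number as a block, 3535 genes and 2 inhibitors (Timp4 and Reck) were called in males, 639 genes and 0 inhibitors in females and 0 genes for the difference (2211 at an unadjusted p below 0.05, limma). A same-numbered array was the best match for 1 of 8 sham arrays, which does not settle whether the numbers mark a shared batch. The falls of Timp4 and Reck in males kept their direction and call in all 30 alternatives, with log2 differences of -1.41 to -1.06 and -1.36 to -1.06. The rise of Timp1 in males lost its call in 2 of 30 (0.76 to 1.15), the fall of Timp2 in 6 with the replicate block among them (-0.61 to -0.35), the fall of Timp3 in 10 (-0.57 to -0.40), and the fall of Timp4 in females in 7 (-0.99 to -0.74). No called difference of the 9 genes reversed.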
